A study of Mus musculus with 8 samples.

Results

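The 74 genes described here encode proteins named for the mitochondrial ribosome. They are the rows whose symbol starts with Mrpl (large subunit) or Mrps (small subunit) followed by a digit and that reached 1 FPKM in at least 2 of 8 libraries. The tables held 23746 rows, of which 76 carried such a symbol and 9782 passed the same filter. The 2 left out were Mrpl17, with 1.11 FPKM in its highest library and 0.943 in the next, and Mrpl11, with 1.36 FPKM and 0.9995 in the next. The members nearest to the limit were Mrpl35, with 2.09 FPKM in its highest library and 1.62 in the next, and Mrpl19, with 1.90 and 1.67. By their names in the structure of the ribosome, 47 members are large-subunit proteins (Mrps18a and Mrps30 among them), 26 are small-subunit proteins and 1, Mrps36, is a subunit of the 2-oxoglutarate dehydrogenase complex that carries a ribosomal name.

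The mitochondrial ribosome translates the few messages of the mitochondrial genome, all of which encode subunits of the respiratory chain and ATP synthase. All of its proteins are made in the cytosol from nuclear genes and imported. Some are homologues of bacterial ribosomal proteins and others exist only in mitochondria. Activated T cells enlarge their mitochondria and make more of this machinery, and chronically stimulated CD8+ T cells are known for impaired mitochondria.

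The RNA was that of sorted BALB/c mouse CD8+ T cells that bound the AH1 tetramer, which carries a peptide of a murine leukaemia virus envelope protein. The 4 groups, of 2 libraries each, were Cd69-/- (Cd69KO in the labels) term diff, Cd69-/- stem-like, wild-type term diff and wild-type stem-like cells. Cd69 encodes a membrane protein of recently activated T cells, stem-like and term diff are the submitters' names of the sorted subsets, and the tissue of origin, the sort gates and the number of mice per library are not given in the sources used here. The labels do not say whether replicates came from separate mice, so p-values measure the spread between these libraries only.

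The start regions of 4 members are shown because they stand for the promoter types found among the members that passed the test below. They come from RefSeq, build GRCm38.p6, which held a promoter (from 250 bases before the start to 50 after it) for 65 of the 74 members, and each is written 5′ to 3′ on the gene's own strand. Capitals mark a match on either strand to CCGGAAG (the ETS family, which includes GABPA), AANATGGCG (YY1) or GCGCA, any base and GCGC in a row (NRF1), factors known to bind promoters of mitochondrial genes. Mrpl43 (chr19:45006393-45006692, minus strand) has 2 ETS matches, Mrps24 (chr11:5707652-5707951, minus strand) a YY1 match, Mrpl30 (chr1:37890227-37890526, plus strand) an NRF1 match on the opposite strand, and Mrps6 (chr16:92058086-92058385, plus strand), the member that was lower in term diff cells, none of the 3. Mrps36, Mrpl20 and Mrpl55, which were higher in term diff cells where they passed, also had none of the 3. The RefSeq window of Mrpl20 (chr4:155802628-155802927) ends before its deposited locus (chr4:155803618-155808829), so the start of that locus was not searched. Windows of some other members also lie outside the deposited locus.
Mrpl43: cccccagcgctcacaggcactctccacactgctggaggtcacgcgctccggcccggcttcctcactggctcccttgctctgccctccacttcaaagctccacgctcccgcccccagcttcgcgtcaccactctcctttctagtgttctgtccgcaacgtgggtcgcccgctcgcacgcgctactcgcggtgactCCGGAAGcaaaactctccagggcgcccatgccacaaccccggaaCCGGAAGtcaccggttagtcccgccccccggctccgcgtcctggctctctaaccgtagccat
Mrps24: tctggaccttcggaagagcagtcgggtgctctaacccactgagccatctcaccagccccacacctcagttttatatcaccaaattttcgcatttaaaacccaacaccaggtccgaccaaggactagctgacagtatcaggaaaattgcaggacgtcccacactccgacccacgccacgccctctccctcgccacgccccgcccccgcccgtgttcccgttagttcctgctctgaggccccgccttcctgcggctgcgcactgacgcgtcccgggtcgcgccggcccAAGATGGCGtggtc
Mrpl30: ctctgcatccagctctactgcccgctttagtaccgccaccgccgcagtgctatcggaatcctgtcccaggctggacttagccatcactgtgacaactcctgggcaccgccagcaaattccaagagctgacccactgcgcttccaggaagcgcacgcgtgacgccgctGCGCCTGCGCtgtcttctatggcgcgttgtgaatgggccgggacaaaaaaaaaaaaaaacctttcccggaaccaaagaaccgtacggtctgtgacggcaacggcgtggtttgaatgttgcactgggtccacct
Mrps6: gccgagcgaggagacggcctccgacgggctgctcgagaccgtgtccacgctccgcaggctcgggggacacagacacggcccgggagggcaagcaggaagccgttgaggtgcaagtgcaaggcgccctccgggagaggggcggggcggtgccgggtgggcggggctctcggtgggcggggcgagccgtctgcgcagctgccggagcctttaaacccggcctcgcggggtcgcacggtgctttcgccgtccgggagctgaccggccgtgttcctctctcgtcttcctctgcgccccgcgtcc

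Of the 65 member promoters, 22 (33.8%) held the ETS letters, against 21.8% of the 6891 rows tested that had a promoter. The YY1 letters were in 10 (15.4%, against 6.43% of rows) and the NRF1 letters in 11 (16.9%, against 11.9%), and 38 members (58.5%, against 35.3% of rows) held at least 1 of the 3. No ETS match overlapped a YY1 match in any of these windows. CACGTG, the E-box that MYC binds, was in 5 members (7.69%, against 10.6%) and TATAAA in 4 (6.15%, against 6.65%). A match describes the letters of a window and does not show that a factor binds there.

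The deposited unit was FPKM, a fragment number set relative to transcript length and to the library. Summed over the 74 members it was 553 and 543 in the Cd69-/- term diff libraries, against 456 and 485 in Cd69-/- stem-like, and 496 and 468 in wild-type term diff, against 475 and 460 in wild-type stem-like. The Cd69-/- term diff libraries had the highest sums, and the wild-type subsets overlapped. Over all rows the FPKM sum ran from 282589 to 919280 between libraries. It too was highest in Cd69-/- term diff (919280 and 881472), but Cd69-/- stem-like replicate 2 had 857475 with a member sum of 485. Wild-type term diff replicate 2 had the lowest total, 282589, with a member sum of 468. The part of the total in the members' sums was not tested. The confidence limits deposited with each FPKM imply approximate fragment numbers, which summed to 2675 to 3489 per library over the members (0.122% to 0.149% of each library), with 30.0 to 43.4 for the median member. Between replicates the median member differed by 0.205 to 0.307 on the log2 FPKM scale, and counting error at those fragment numbers alone would give 0.215 to 0.243. In log2(FPKM + 1) the median member's gap was 0.218 in Cd69-/- stem-like (0.148 over all rows), and 0.153 in Cd69-/- term diff (0.171). It was 0.255 in wild-type stem-like (0.178 over all rows) and 0.191 in wild-type term diff (0.170). In bulk RNA, fewer cells of a type and less RNA per cell cannot be told apart.

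The labels fitted the libraries. Cd69 was at 2.21 to 3.69 FPKM in the Cd69-/- libraries, against 10.4 to 23.4 in wild type. The stem-like marker Tcf7 was at 0.228 to 0.755 FPKM in term diff, against 40.6 to 64.2 in stem-like libraries. The 8 CD8 T cell markers summed to 998 to 1476 FPKM in every library, and 0 of 5 B cell markers reached 1 FPKM. Myeloid markers (5 of 9 reached 1 FPKM) summed to 20.2 to 33.0 FPKM in term diff, against 9.15 to 13.6 in stem-like, and the defining markers Csf1r, Itgam and Cd14 stayed below 1 FPKM. Of this list Fcer1g was higher in term diff (17.1 to 29.8 FPKM, against 0.520 to 1.53 in stem-like), while Cd74 (0.454 to 0.647 FPKM in term diff, against 1.36 to 4.45 in stem-like) and Cd68 (0.964 to 2.70 in term diff, against 3.02 to 3.32 in stem-like) were lower, and the subsets overlapped for Lyz2 and Tyrobp. Tumour and stroma markers summed to 8.62 to 11.6 FPKM in term diff, against 27.7 to 35.2 in stem-like, with Col1a1, Epcam and Krt8 below 1. Of these, Igfbp7 (2.16 to 6.26 FPKM in term diff, against 13.3 to 20.5 in stem-like) and Pecam1 (4.23 to 5.96 in term diff, against 10.7 to 13.8 in stem-like) made up most of both sums and were lower in term diff. NK cell markers summed to 28.1 to 38.0 FPKM in term diff, against 19.7 to 27.3 in stem-like, with Klre1 higher in term diff (25.1 to 36.4 FPKM, against 14.1 to 21.5 in stem-like) and Eomes lower (1.32 to 4.68 FPKM, against 4.82 to 6.84 in stem-like). Markers of CD4 and regulatory T cells summed to 70.7 to 115 FPKM in term diff, against 106 to 120 in stem-like, mostly Ctla4 (62.4 to 107 FPKM in term diff, against 85.6 to 100.5 in stem-like), with Il2ra lower in term diff (3.98 to 6.45 FPKM, against 12.7 to 14.7 in stem-like). The part of these differences in the results below was not tested.

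Levels of the members spanned 25.3-fold, from 1.5 FPKM for Mrpl35 to 37.8 for Mrpl52, with a median of 4.90 over the means of 8 libraries. Only 13 members averaged at least 10 FPKM, 36 at least 5, and 8 less than 2. The highest were Mrpl52, a mitochondria-specific large-subunit protein, Mrps21 at 24.1 FPKM, a homologue of bacterial S21, and Mrpl18 at 23.8 FPKM, a homologue of the bacterial protein that binds 5S rRNA. Mrps26 (17.6 FPKM), Mrps6 (15.5) and Mrpl42 (15.1) followed. The lowest after Mrpl35 were Mrpl19 (1.52 FPKM), Mrps27 (1.53), Mrpl50 (1.56 FPKM), Mrpl1 (1.59) and Mrpl47 (1.71). All but 4 members (Mrps12, Mrpl55, Mrpl47 and Mrpl35) reached 1 FPKM in all 8 libraries, and the order of the members was alike between any pair of libraries (Spearman's rho 0.837 to 0.943 over 74 genes, as a description).

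**Figure D1:**
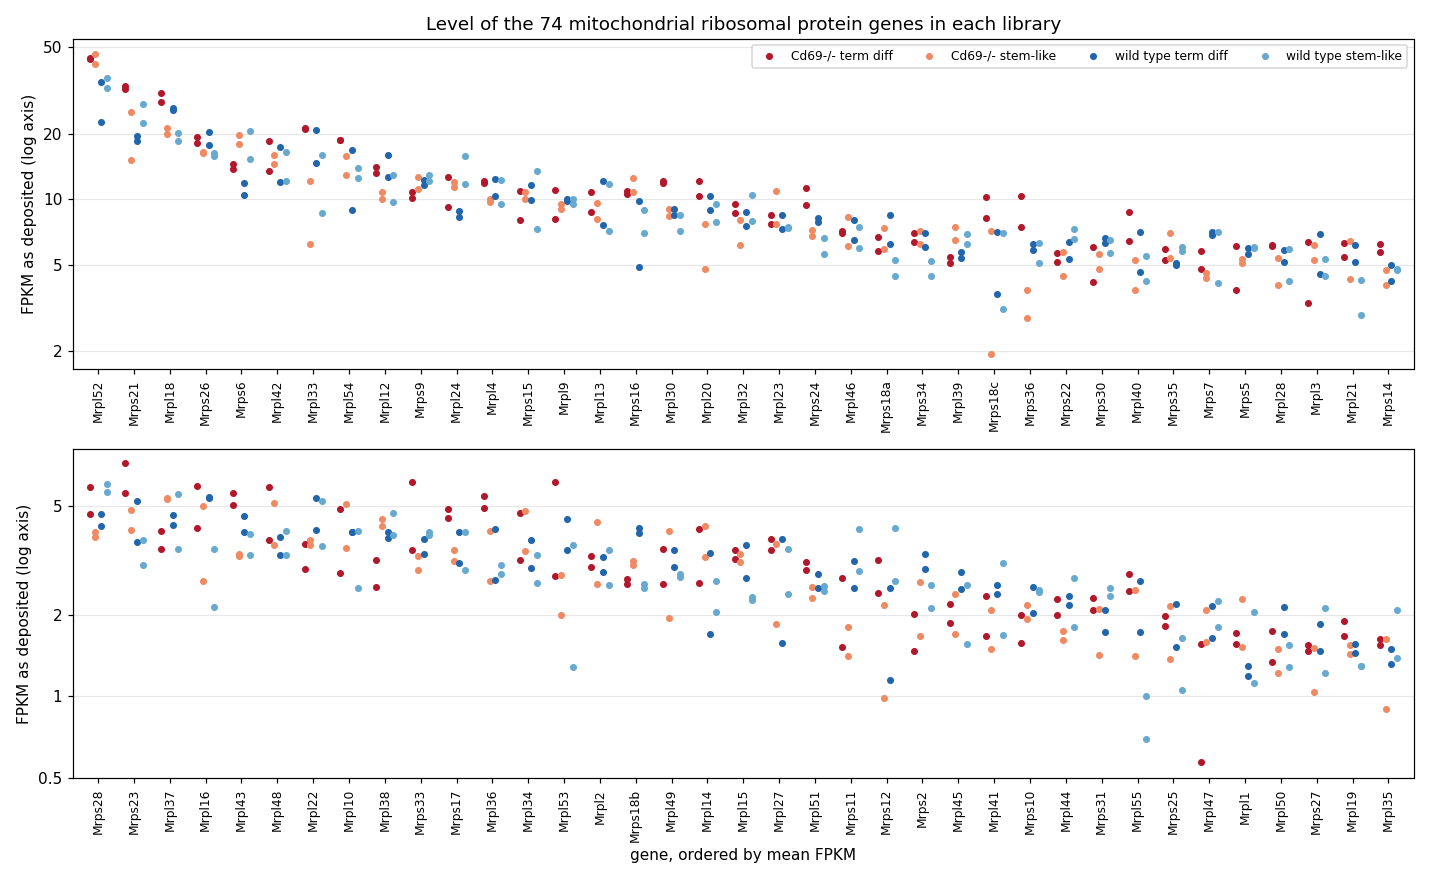
Deposited FPKM (log axis) of the 74 mitochondrial ribosomal protein genes, ordered by mean FPKM in 2 rows, with 1 point per library and the groups Cd69-/- term diff, Cd69-/- stem-like, wild-type term diff and wild-type stem-like from left to right at each gene. The level differs more between genes (1.5 to 37.8 FPKM on average) than between groups of 1 gene.

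Genes for the same part of the ribosome differed in their messages per length, and protein copies per ribosome were not considered. Of the proteins of the stalk, which recruits translation factors, Mrpl12 averaged 12.4 FPKM, Mrpl10, its base, 3.87, and Mrpl11, outside the rule, 0.865. Mrps12, of the decoding centre, averaged 2.41 FPKM, and Mrpl45, which anchors the ribosome to the inner membrane, 2.2. The 3 paralogues of the Mrps18 family, which sit at different places in the ribosome, averaged 6.27 FPKM (Mrps18a), 6.05 (Mrps18c) and 3.10 (Mrps18b). Small-subunit members had a median of 5.2 FPKM and large-subunit members 4.27, homologues of bacterial proteins 5.2 and mitochondria-specific proteins 4.15. Shorter transcripts had higher levels (Spearman's rho -0.32 between mean FPKM and length over 74 genes, as a description), with medians of 6.01 FPKM up to 800 bases, 5.34 above that up to 1500 and 3.76 above 1500. FPKM of short transcripts depends on how length is corrected for, and the part of this in the order was not tested.

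In Cd69-/- cells 4 members rose in term diff relative to stem-like and 0 fell, by limma on log2(FPKM + 1) with Benjamini-Hochberg adjustment over all 9782 rows. That is 5.41% of the members, where 9.45% of all rows passed (3.88% higher and 5.56% lower), so the share is below the background. The part of the members' replicate spread in that was not tested. At an unadjusted p under 0.05 there were 18 members, 14 higher and 4 lower, where 24.7% of rows were. The median difference of the 74 was 0.12, against -0.03 over all rows, and 47 of 74 were above 0, against 45.9% of rows.

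Mrps36 differed most between the Cd69-/- subsets. It was at 7.43 and 10.3 FPKM in Cd69-/- term diff, against 2.84 and 3.80 in Cd69-/- stem-like. It was at 6.24 and 5.85 FPKM in wild-type term diff, against 5.08 and 6.25 in wild-type stem-like. The Cd69-/- stem-like libraries were the lowest of the 8 and the wild-type subsets overlapped. In Cd69-/- the difference was 1.19 ± 0.18 (log2, SE, adjusted p = 0.00625) and in wild type 0.08 ± 0.18 (adjusted p = 0.805). Its product joins the enzyme subunits of a complex of the citric acid cycle and is not part of the assembled ribosome, so the largest change among the members was in a gene that shares only the name. Without Cd69-/- stem-like replicate 1 its call ended (adjusted p = 0.0537).

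The 3 ribosomal proteins that rose in Cd69-/- term diff cells are all of the large subunit. Mrpl18 was at 28.1 and 30.9 FPKM in Cd69-/- term diff, against 20.004 and 21.3 in Cd69-/- stem-like, and at 25.8 and 26.1 FPKM in wild-type term diff, against 18.5 and 20.1 in wild-type stem-like. All 4 term diff libraries lay above all 4 stem-like libraries. Its difference was 0.49 ± 0.11 in Cd69-/- (adjusted p = 0.0325) and 0.41 ± 0.11 in wild type, just outside the threshold (adjusted p = 0.0509).

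Mrpl43, a mitochondria-specific protein, was at 5.62 and 5.05 FPKM in Cd69-/- term diff, against 3.34 and 3.27 in Cd69-/- stem-like. It was at 4.61 and 4.02 FPKM in wild-type term diff, against 3.32 and 3.96 in wild-type stem-like. Here too no term diff library overlapped a stem-like one, with differences of 0.56 ± 0.13 in Cd69-/- (adjusted p = 0.0346) and 0.20 ± 0.13 in wild type (adjusted p = 0.374). Mrpl20, a homologue of an early-binding bacterial assembly protein, was at 10.3 and 12.2 FPKM in Cd69-/- term diff, against 4.79 and 7.68 in Cd69-/- stem-like, and at 10.3 and 8.92 FPKM in wild-type term diff, against 9.54 and 7.81 in wild-type stem-like. Only its Cd69-/- subsets were apart (0.78 ± 0.20, adjusted p = 0.0478). The calls of Mrpl18 and Mrpl43 each ended without any of the 4 Cd69-/- libraries (adjusted p = 0.0796 to 0.205 and 0.0958 to 0.163), and that of Mrpl20 without any single library other than Cd69-/- stem-like replicate 2 (0.0566 to 0.258).

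Among members that did not pass, the largest positive differences in Cd69-/- were 1.18 ± 0.33 for Mrpl33 (adjusted p = 0.0628), 1.05 ± 0.49 for Mrps18c (adjusted p = 0.232) and 0.71 ± 0.21 for Mrps21 (adjusted p = 0.0808). Mrps18c, the homologue of bacterial S18, was at 1.95 and 7.13 FPKM in the Cd69-/- stem-like replicates, the widest replicate gap of any member in that group on the log2(FPKM + 1) scale. The largest negative differences were -0.50 ± 0.24 for Mrpl47, -0.48 ± 0.14 for Mrpl38, -0.41 ± 0.18 for Mrpl37, -0.39 ± 0.15 for Mrps6 and -0.35 ± 0.12 for Mrpl39. Term diff and stem-like libraries did not overlap for 27 members higher and 7 lower in term diff, where 56.8% of all rows were apart, 24.5% higher and 32.4% lower. For 64 of 74 members the 95% interval of the difference lay within 1 log2 unit of 0, as it did for 85.6% of rows.

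In wild type 1 member rose in term diff relative to stem-like and 1 fell, which is 2.70% of the members where 13.1% of rows passed (7.24% higher and 5.83% lower). At an unadjusted p under 0.05 there were 12, with 9 higher and 3 lower, where 28.0% of rows were. The median was 0.07, against 0.06 over all rows. The share of members called was below the background, and the part of the members' replicate spread in that was not tested.

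Mrps18b, a mitochondria-specific paralogue of bacterial S18, was at 2.59 and 2.70 FPKM in Cd69-/- term diff, against 3.15 and 3.06 in Cd69-/- stem-like. It was at 4.17 and 4.0 FPKM in wild-type term diff, against 2.59 and 2.51 in wild-type stem-like. The wild-type term diff libraries were the highest of the 8. Its difference was -0.17 ± 0.12 in Cd69-/- (adjusted p = 0.410) and 0.52 ± 0.12 in wild type (adjusted p = 0.0229), and the wild-type call ended without any of the 4 wild-type libraries (adjusted p = 0.0875 to 0.105).

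Mrps6, a homologue of bacterial S6, was the member that fell. It was at 13.7 and 14.5 FPKM in Cd69-/- term diff, against 19.7 and 17.9 in Cd69-/- stem-like, and at 10.5 and 11.8 FPKM in wild-type term diff, against 15.3 and 20.5 in wild-type stem-like. All 4 term diff libraries lay below all 4 stem-like libraries. The difference was -0.39 ± 0.15 in Cd69-/- (adjusted p = 0.157) and -0.63 ± 0.15 in wild type (adjusted p = 0.0324), a call that ended without any single library other than wild-type stem-like replicate 1 (adjusted p = 0.0512 to 0.141). Slc5a3, the sodium/myo-inositol cotransporter, lies within the Mrps6 locus and shares reads with it if the annotation's transcripts overlap. Slc5a3 fell in Cd69-/- term diff (-0.66 ± 0.12, adjusted p = 0.0112) and was -0.36 ± 0.12 in wild type (adjusted p = 0.0830), so the 2 genes' values may not be separate.

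Further wild-type values that did not pass were 0.78 ± 0.22 for Mrpl55 (adjusted p = 0.0522), 0.77 ± 0.27 for Mrpl16, 0.61 ± 0.37 for Mrpl53, 0.55 ± 0.20 for Mrpl21 and 0.53 ± 0.33 for Mrpl33 on the positive side. On the negative side were -0.66 ± 0.31 for Mrps12, -0.62 ± 0.18 for Mrpl24 (adjusted p = 0.0542), -0.36 ± 0.21 for Mrps21 and -0.33 ± 0.13 for Mrps28. The wild-type subsets did not overlap for 15 members higher and 11 lower in term diff, where 55.2% of rows were apart, 33.4% higher and 21.8% lower.

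Averaged over the genotypes, 7 members rose in term diff and 1 fell. That is 10.8% of the members, against 20.5% of all rows (10.5% higher and 9.93% lower), and the median was 0.10, against 0.02. At an unadjusted p under 0.05 there were 20, with 16 higher and 4 lower, where 33.9% of rows were. Mrpl18 (0.45 ± 0.08, adjusted p = 0.00563), Mrps24 (0.42 ± 0.09, adjusted p = 0.0150) and Mrpl43 (0.38 ± 0.09, adjusted p = 0.0226) rose and Mrps6 (-0.51 ± 0.11, adjusted p = 0.0123) fell with no overlap between the 4 term diff and the 4 stem-like libraries. With Mrps26 (0.20 ± 0.08) and Mrpl39 (-0.28 ± 0.09), which did not pass, 4 members lay wholly higher and 2 wholly lower over the 8 libraries, where 21.9% of rows were apart, 10.9% higher and 11.1% lower.

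Mrps24, a homologue of bacterial S3 at the entry of the message, was at 9.37 and 11.3 FPKM in Cd69-/- term diff, against 6.8 and 7.2 in Cd69-/- stem-like. It was at 7.86 and 8.19 FPKM in wild-type term diff, against 5.62 and 6.64 in wild-type stem-like. Its difference was 0.50 ± 0.13 in Cd69-/- and 0.34 ± 0.13 in wild type, and the gap between them was 0.15 ± 0.19 (95% interval -0.28 to 0.58). Mrps36 also passed in the average (0.64 ± 0.13, adjusted p = 0.00996), where its Cd69-/- libraries alone were apart.

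Mrpl33, Mrpl55 and Mrpl30, all of the large subunit, passed in the average with overlapping libraries. Mrpl33 was at 21.2 and 20.9 FPKM in Cd69-/- term diff, against 6.21 and 12.2 in Cd69-/- stem-like, and at 20.7 and 14.7 FPKM in wild-type term diff, against 15.9 and 8.66 in wild-type stem-like (0.85 ± 0.23, adjusted p = 0.0349). Mrpl55 was at 2.81 and 2.43 FPKM in Cd69-/- term diff, against 1.41 and 2.46 in Cd69-/- stem-like, and at 1.73 and 2.67 FPKM in wild-type term diff, against 1.00 and 0.695 in wild-type stem-like (0.55 ± 0.15, adjusted p = 0.0375); its wild-type stem-like libraries held 5.0 and 3.0 implied fragments. Mrpl30 was at 12.1 and 11.9 FPKM in Cd69-/- term diff, against 8.35 and 8.96 in Cd69-/- stem-like, and at 8.41 and 9.01 FPKM in wild-type term diff, against 7.13 and 8.49 in wild-type stem-like (0.29 ± 0.09, adjusted p = 0.0465).

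The averaged calls of Mrpl18 and Mrps36 held without each single library. Those of Mrps6 (adjusted p = 0.0517) and Mrps24 (0.0593) ended without Cd69-/- stem-like replicate 1. That of Mrpl43 ended without any of 5 libraries (all but wild-type stem-like, wild-type term diff and Cd69-/- term diff replicate 2; adjusted p = 0.0668 to 0.0766), that of Mrpl33 without any of 5 (all but wild-type stem-like replicate 1, Cd69-/- stem-like replicate 2 and wild-type term diff replicate 2; 0.0886 to 0.109), that of Mrpl55 without any but Cd69-/- stem-like replicate 2 and wild-type term diff replicate 1 (0.0539 to 0.116), and that of Mrpl30 without any but wild-type stem-like replicate 2 (0.0822 to 0.148). The averaged split of 7 higher and 1 lower moved with the scaling. It was 7 and 4 with median-of-ratios factors, 6 and 4 with quantile normalization, 3 and 3 with voom on implied fragments, and 7 and 5 with the trend on transcript length removed. In Cd69-/- the same 4 settings gave 5 and 1, 3 and 0, 3 and 0, and 4 and 3, and in wild type 1 and 2, 2 and 2, 0 and 2, and 3 and 2. Over all rows the averaged split was 1030 and 971 in the main fit. The 4 settings gave 1158 and 1166, 1078 and 1121, 1338 and 1379, and 1249 and 1186 rows. In Cd69-/- the rows were 380 and 544, then 507 and 583, 410 and 537, 754 and 861, and 598 and 599. In wild type they were 708 and 570, then 653 and 743, 652 and 717, 875 and 985, and 853 and 832.

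Of the 10 members that passed between subsets in at least 1 comparison, the Mrps genes lay, by the loci of the deposited tables (mm10, whole gene), with Mrps36 at chr13:100735940-100744659, Mrps18b at chr17:35910385-35916369, Mrps6 at chr16:92058336-92112227 and Mrps24 at chr11:5703983-5707699. The Mrpl genes lay with Mrpl18 at chr17:12911355-12916091, Mrpl43 at chr19:45005014-45006442, Mrpl20 at chr4:155803618-155808829, Mrpl33 at chr5:31613951-31622644, Mrpl55 at chr11:59202517-59206002 and Mrpl30 at chr1:37890553-37898333.

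**Figure D2:**
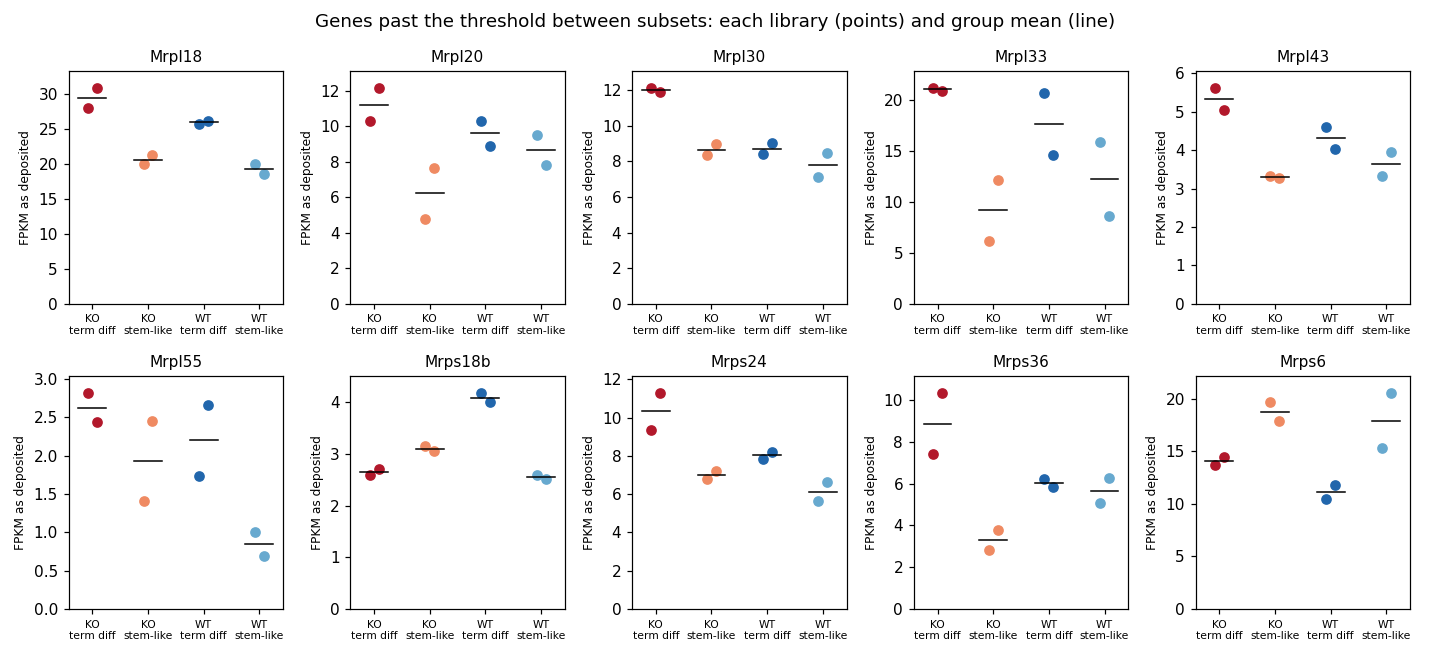
Deposited FPKM of the 10 members past the threshold between subsets in at least 1 comparison (points, 1 per library, n = 2 per group; line, group mean), with Cd69-/- (KO) term diff and stem-like left of wild-type (WT) term diff and stem-like. Mrpl18, Mrpl43 and Mrps24 are higher and Mrps6 lower in all term diff than in all stem-like libraries. Mrps36, Mrpl20, Mrpl33 and Mrpl30 are apart in Cd69-/- alone, Mrpl55 is apart in wild type alone and Mrps18b is highest in wild-type term diff.

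Between the genotypes 0 of 74 members passed in either subset or on average, where 0.153% (stem-like), 0.194% (term diff) and 0.542% (average) of all rows did, by limma. With voom on implied fragments the counts were also 0. At an unadjusted p under 0.05 there were 8 members in stem-like (3 higher and 5 lower in Cd69-/-, against 7.26% of rows), 12 in term diff (9 and 3, against 15.1%) and 10 on average (6 and 4, against 12.4%). With the trend on transcript length removed the splits were 4 and 7 in stem-like, 3 and 7 in term diff and 4 and 13 on average. For 66 members in stem-like, 64 in term diff and 73 on average the 95% interval lay within 1 log2 unit of 0. These counts are not set against all rows and are not read as a trait of the members.

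In stem-like cells the members' median was -0.02, against 0.06 over all rows. Mrpl55 stood highest, at 1.41 and 2.46 FPKM in Cd69-/- stem-like, against 1.00 and 0.695 in wild-type stem-like (0.65 ± 0.22, adjusted p = 0.557). Mrps12 stood lowest, at 2.18 and 0.983 FPKM in Cd69-/- stem-like, against 2.65 and 4.17 in wild-type stem-like (-0.79 ± 0.31, adjusted p = 0.619), next to Mrps11, of the platform of the small subunit, at 1.80 and 1.41 FPKM in Cd69-/- stem-like, against 2.90 and 4.13 in wild-type stem-like (-0.78 ± 0.22, adjusted p = 0.450). Mrps36 (-0.63 ± 0.18, adjusted p = 0.450), Mrps28 (-0.47 ± 0.13) and Mrpl20 (-0.44 ± 0.20) followed below 0, and Mrpl14 (0.50 ± 0.26), Mrps16 (0.50 ± 0.26), Mrpl21 (0.47 ± 0.20) and Mrps34 (0.40 ± 0.14) above it. The stem-like genotypes did not overlap for 15 members higher and 13 lower in Cd69-/-, where 37.8% of rows were apart, 26.3% higher and 11.5% lower.

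In term diff cells the median was 0.07, against -0.05 over all rows, and it was -0.05 with the trend on transcript length removed, so its direction was not stable. Mrps21 was at 33.1 and 32.0 FPKM in Cd69-/- term diff, against 18.5 and 19.5 in wild-type term diff (0.75 ± 0.21, adjusted p = 0.211), and Mrpl52 was at 44.5 and 44.1 FPKM in Cd69-/- term diff, against 34.6 and 22.7 in wild-type term diff (0.64 ± 0.19, adjusted p = 0.220). Neither pair of groups overlapped and neither passed. The other leading values were 0.73 ± 0.49 for Mrps18c, 0.57 ± 0.24 for Mrpl54 and 0.56 ± 0.26 for Mrps16 above 0. Below 0 were -0.60 ± 0.19 for Mrps2, -0.53 ± 0.24 for Mrpl47, -0.48 ± 0.12 for Mrps18b (adjusted p = 0.171), -0.41 ± 0.18 for Mrpl22 and -0.36 ± 0.14 for Mrpl38. The term diff genotypes did not overlap for 24 members higher and 12 lower in Cd69-/-, where 47.8% of rows were apart, 19.7% higher and 28.1% lower. On average over the subsets Mrpl52 and Mrps16 lay wholly higher in Cd69-/- and 0 members wholly lower, where 3.07% of rows were apart, 1.75% higher and 1.32% lower.

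Whether the subset difference depended on genotype was tested by the interaction, the Cd69-/- difference minus the wild-type one. Of the 74 members 0 passed by limma, where 0.0307% of rows did, and 0 by voom, and by limma 6 had an unadjusted p under 0.05 (4 higher and 2 lower, against 9.09% of rows). That split was 12 and 1 with median-of-ratios factors and with quantile normalization, 5 and 0 with voom and 6 and 5 with the trend on transcript length removed. In order of p, Mrps36 was at 1.10 ± 0.26 (adjusted p = 0.539), Mrps18b at -0.69 ± 0.16 (adjusted p = 0.539), Mrps21 at 1.07 ± 0.30, Mrps28 at 0.67 ± 0.19 and Mrps12 at 1.25 ± 0.43. The Cd69-/- calls and the wild-type calls above are therefore not shown to differ between the genotypes. Over all rows the median interaction was -0.10 as deposited and -0.0042 with median-of-ratios factors, and the members' median was 0.05 and 0.16.

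The within-genotype differences share no library, so they can be set side by side. Of the 74 members 33 were above 0 in both genotypes (44.6%, against 34.6% of rows) and 11 below 0 in both (14.9%, against 31.2%). Pearson's r between the Cd69-/- and wild-type differences was 0.19 over the members, as a description, and 0.49 over all rows. The members with the widest gap between genotypes were Mrps12, with 0.59 ± 0.31 in Cd69-/- and -0.66 ± 0.31 in wild type, and Mrps36.

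**Figure D3:**
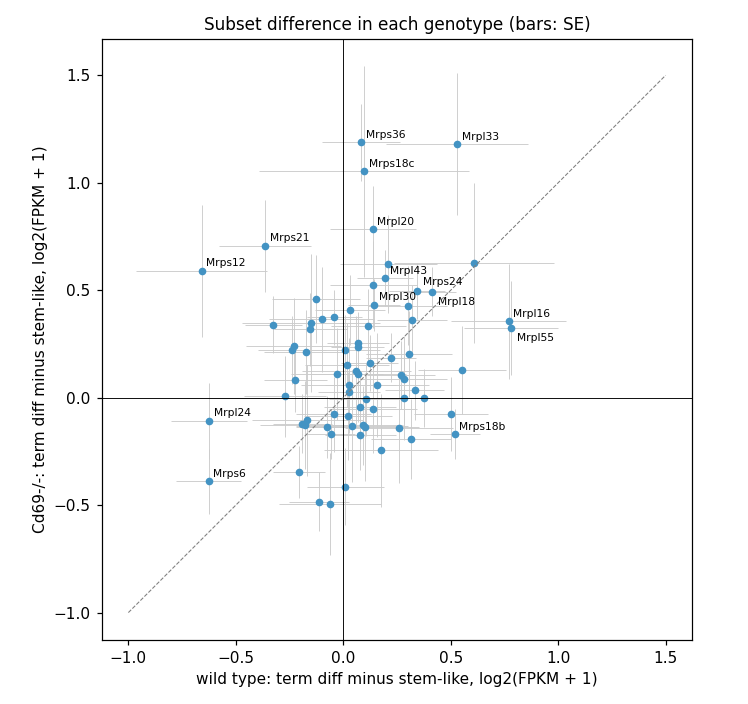
Difference between term diff and stem-like cells in log2(FPKM + 1) for each of the 74 members, in Cd69-/- (vertical axis) and in wild type (horizontal axis), with standard errors and a dashed line of equality. Mrpl18 and Mrps24 lie near the line above 0 and Mrps6 below 0, while Mrps36 stands at 1.19 in Cd69-/- and 0.08 in wild type.

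By place in the ribosome, the Cd69-/- subset difference had a median of 0.11 over 47 large-subunit members (3 rose) and 0.17 over 26 small-subunit members (0 passed, 7 at an unadjusted p under 0.05). In wild type the medians were 0.09 for the large subunit, where 36 of 47 members were above 0 and 0 passed (7 unadjusted), and -0.04 for the small subunit, where 12 of 26 were above 0, 1 rose and 1 fell. Over all rows in wild type 57.5% were above 0, 7.24% rose, 5.83% fell and 28.0% had an unadjusted p under 0.05. In Cd69-/- 3.88% of all rows rose, 5.56% fell and 24.7% had an unadjusted p under 0.05. By origin, the Cd69-/- medians were 0.18 over 44 homologues of bacterial proteins (2 rose) and 0.08 over 29 mitochondria-specific proteins (1 rose), and in wild type 0.07 for each. Neither split was tested as a difference.

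**Figure D4:**
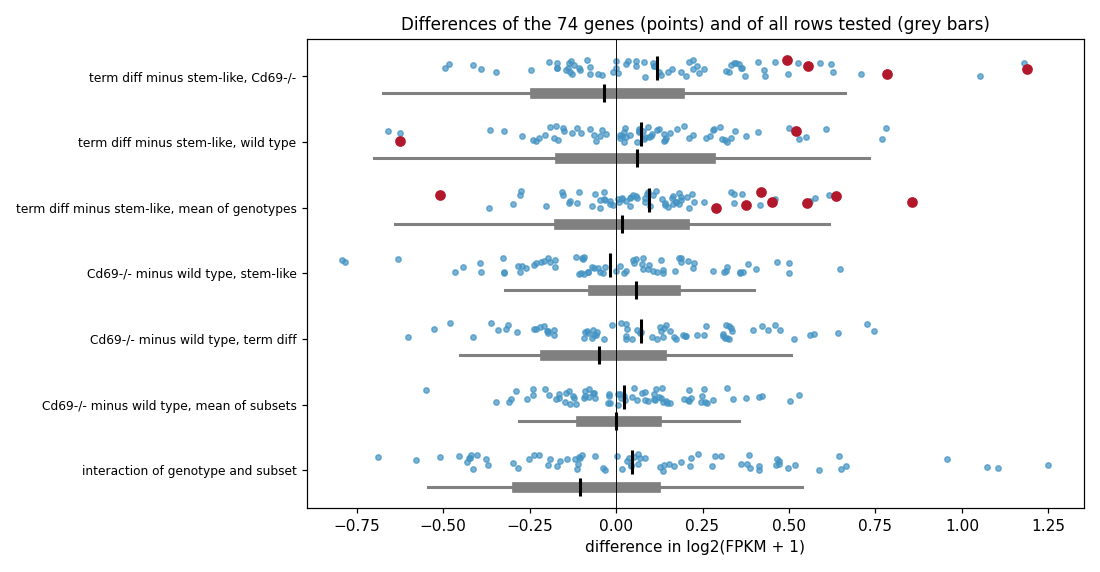
Differences in log2(FPKM + 1) of the 74 members (points, red where the adjusted p is under 0.05, with a bar at their median) and of all 9782 rows (grey: thin line from the 5th to the 95th percentile, thick line the middle 50%, bar the median) in 7 comparisons. Calls appear only between subsets (4, 2 and 8 members), and the members' median is 0.12, against -0.03 over all rows, in Cd69-/- and 0.07, against 0.06, in wild type.

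The Cd69-/- difference moved with transcript length, over the members as over all rows. Lengths are those of GENCODE M21, which for some members are longer than the deposited locus. Over all rows the Cd69-/- median was 0.34 up to 800 bases, 0.12 above that up to 1500 and -0.07 above 1500. Over the members it was 0.34 (16 genes), 0.22 (31) and 0.06 (27). In wild type the medians of all rows were 0.04, 0.01 and 0.07 and those of the members 0.07, 0.10 and 0.03. Of the 4 members that rose in Cd69-/-, Mrps36 (701 bases) and Mrpl20 (764) are of the shortest class and Mrpl18 (1219 bases) and Mrpl43 (1398) of the next. Spearman's rho between length and difference was -0.26 over the members and -0.28 over all rows in Cd69-/-, and -0.03 and 0.02 in wild type, as descriptions. For the difference between genotypes in term diff cells rho was -0.32 over the members and -0.35 over all rows. Removing the trend gave 4 members higher and 3 lower in Cd69-/-, where 598 of all rows were higher and 599 lower.

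**Figure D5:**
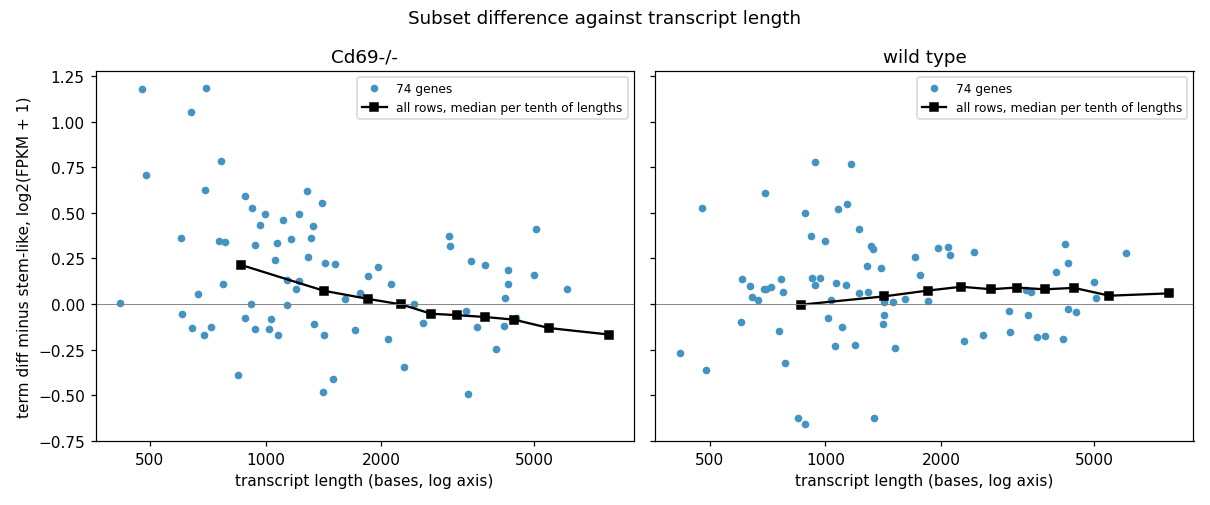
Difference between term diff and stem-like cells in log2(FPKM + 1) against transcript length (bases, log axis) in Cd69-/- (left) and wild type (right), for the 74 members (points) and as the median of all rows in 10 classes of length (squares). The line of all rows runs from 0.21 in the shortest to -0.17 in the longest class in Cd69-/- and has no such slope in wild type.

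Short lists of genes that work with the mitochondrial ribosome were also counted between subsets by limma. Of all rows 9.45% passed in Cd69-/-, 13.1% in wild type and 20.5% on average. At an unadjusted p under 0.05 these shares were 24.7%, 28.0% and 33.9%. With lists this short, counts near 0 are not read as a result about their genes. Of 7 ribosomal proteins under other names, Dap3, of the small subunit, fell in term diff on average (-0.34 ± 0.10, adjusted p = 0.0405), and 0 passed in Cd69-/- or wild type (2 unadjusted in each). Of 21 assembly factors 0 passed in Cd69-/-, wild type or the average (1, 0 and 0 at an unadjusted p under 0.05), with medians of -0.08, -0.01 and -0.05. Of 12 translation factors Mtif2, the initiation factor, fell in wild type (-0.51 ± 0.13, adjusted p = 0.0354) and on average (-0.40 ± 0.09, adjusted p = 0.0168), and 0 passed in Cd69-/- (1 unadjusted).

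Of 17 genes for charging mitochondrial tRNAs, Sars2, the seryl-tRNA synthetase, rose in wild type (0.90 ± 0.19, adjusted p = 0.0177), as did Gatc (0.61 ± 0.15, adjusted p = 0.0334), a subunit of the enzyme that makes glutaminyl-tRNA. Tars2, the threonyl-tRNA synthetase, fell on average (-0.38 ± 0.09, adjusted p = 0.0224), and 0 passed in Cd69-/- (3 unadjusted). Of 8 genes of mitochondrial DNA maintenance and transcription, Ssbp1, the single-strand binding protein, rose in wild type (0.80 ± 0.19, adjusted p = 0.0306) and on average (0.55 ± 0.14, adjusted p = 0.0234). Polg2, the accessory subunit of the DNA polymerase, fell in Cd69-/- (-0.58 ± 0.13, adjusted p = 0.0309), and on average it and Polg, the catalytic subunit (-0.32 ± 0.09, adjusted p = 0.0367), fell. Of 9 regulators of mitochondrial genes, which include Nrf1, Gabpa, Yy1 and Myc, 0 passed in Cd69-/-, wild type or the average (2, 2 and 1 unadjusted).

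Oxidative phosphorylation and the cytosolic ribosome were set beside the members, of which 4 rose in Cd69-/- with a median of 0.12. Of 76 tested nuclear subunits of oxidative phosphorylation 12 rose in Cd69-/- term diff (15.8%, median 0.28), where 3.88% of all rows did, and 1 in wild type (median 0.03), where 7.24% did. The part of the trend on transcript length in these counts was not tested. Of 79 cytosolic ribosomal proteins 0 passed in Cd69-/- (median 0.15, 3 unadjusted), and 0 rose and 2 fell in wild type (median -0.31). Between genotypes in term diff cells 0 of either list passed, with medians of 0.28 for oxidative phosphorylation (23 unadjusted) and 0.43 for cytosolic ribosomal proteins (21 unadjusted), against 0.07 for the members. Over all rows the median was -0.05, and 15.1% had an unadjusted p under 0.05. This comparison also moved with transcript length over all rows, and the part of that in these values was not tested. Of 20 proliferation genes 0 passed in Cd69-/- (median 0.27, 5 unadjusted) and 14 rose in wild type (median 0.71). In the interaction the lowest adjusted p of these genes was 0.539 (Mcm2 and Mcm4, limma). Their subset differences are therefore not shown to differ between genotypes. Their summed level was 353 and 403 FPKM in Cd69-/- term diff, against 258 and 327 in Cd69-/- stem-like, and 436 and 474 in wild-type term diff, against 262 and 260 in wild-type stem-like. Its part in the members' differences was not tested.

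Some members start close to another gene. A protein-coding gene started on the opposite strand within 1000 bases for 21 of 74 members (28.4%), against 12.4% of 8407 rows. In 1 case both genes are members: Mrpl46 and Mrps11 start 30 bases apart, and their Cd69-/- subset differences were -0.01 ± 0.17 and 0.24 ± 0.22. Mrpl18 starts 37 bases from Tcp1, a chaperonin subunit whose difference was 0.15 ± 0.14 in Cd69-/- and -0.02 ± 0.14 in wild type, where that of Mrpl18 was 0.49 and 0.41. Mrps12 starts 232 bases from Sars2, which rose in wild type where Mrps12 was at -0.66 ± 0.31. Mrpl51 starts 464 bases from Ncapd2, a condensin subunit that rose in wild type (0.93 ± 0.15, adjusted p = 0.00551) where Mrpl51 was at 0.07 ± 0.12. Whether such pairs differ within themselves was not tested.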

How the data were processed

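RNA-seq libraries from sorted cells were made with a stranded total-RNA kit for low input and read single-end, 76 cycles, per the labels. Build mm10 and, as tools, Cufflinks 2.2.1, TopHat 1.3.2, Bowtie2 2.3.4 and bcl2fastq 2.20 stand in the submitters' processing notes. Annotation, strand setting and FPKM total are not given in the sources used here, so reads of overlapping genes (9 members overlap another row's locus) cannot be told apart. The deposited tables hold FPKM per gene with confidence limits in the same unit, 1 table per library, as the authors gave them, and no read counts. Implied fragments were computed as (2 × FPKM / (upper limit − FPKM)) squared, and they are approximate and cover counting error only.

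FPKM as deposited was taken as log2(FPKM + 1) with no further scaling, for rows of at least 1 FPKM in at least 2 libraries. A pseudocount of 1 understates differences of low genes. R 4.3.3 with limma 3.58.1 fitted a model of 4 group means to 8 libraries (trended empirical Bayes, 4 residual and 4.2 prior degrees of freedom). The 7 contrasts had 2-sided tests with Benjamini-Hochberg adjustment across 9782 rows and a threshold of 0.05. The script was tested on simulated data. Intervals are 95%, from the moderated statistic with 8.2 degrees of freedom. Transcript lengths are of the longest principal protein-coding transcript in GENCODE M21, and 8449 rows had one. For some members that transcript is longer than the whole deposited locus. Mrps26 has 4278 bases at chr2:130563757-130565394, and Mrps17, Mrpl51, Mrps16 and Mrpl32 are such cases too. These lengths are therefore not those behind the FPKM, and results by length are limited by this.

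The genes named are every member past the threshold, the 5 highest and 5 lowest differences within a genotype or subset, the 6 highest and 6 lowest levels, members next to the FPKM rule, stalk, decoding and membrane-anchor proteins and the Mrps18 family, and up to 4 genes of each other list. Slc5a3, Tcp1, Ncapd2, Mrpl46 and Mrpl51 were named after their values were seen. Members and lists were chosen with earlier results of these data known. Alternatives were other pseudocounts, filters, scalings, fits, thresholds, the replicate number as a block and each library left out. Of these, 3 were added after seeing the data: leaving out both wild-type replicate 2 libraries, voom on implied fragments and removal of a trend with transcript length.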

Additional observations from a re-analysis of the deposited data

How the results depend on the processing

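The counts of members called between subsets moved with most choices, and those between genotypes did not move past 1. The number of all rows called moved too, so a member count alone is not a share. With the length trend removed 598 rows rose and 599 fell in Cd69-/-, against 380 and 544 in the main fit. In wild type these were 853 and 832, against 708 and 570. In Cd69-/- the count of 4 was 1 with no filter on low values, 1 with only the groups compared in the fit, 1 without both wild-type replicate 2 libraries, 9 at a threshold of 0.1, 7 with the length trend removed, and 1 to 4 without single libraries. In wild type the count of 2 was 1 with no filter, 0 with only the groups compared, 4 with quantile normalization, 5 in a robust fit, 6 at a threshold of 0.1, 0 without both wild-type replicate 2 libraries, 5 with the length trend removed, and 0 to 2 without single libraries. Averaged over genotypes the count of 8 was 4 with no filter, 15 at a threshold of 0.1, 4 without both wild-type replicate 2 libraries, and 2 to 8 without single libraries. Between genotypes the count in term diff was 1 (Mrps18b, lower in Cd69-/-) with the length trend removed, and the averaged count was 0 to 1 without single libraries, the 1 appearing without wild-type term diff replicate 1.

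With the replicate number as a block the Cd69-/- count was 1. Deviations of same-numbered libraries from their group means correlated at -0.297 to 0.153 between groups. With 2 libraries a group, weak correlations cannot decide whether same-numbered libraries share mice or pools. Of 14 calls of single members, 94 of 312 alternative values lost the threshold and 0 changed direction. Of 37 results that had not passed, 29 of 838 alternative values passed. The 1 that changed direction was Mrpl53 in wild type, at -0.049 without both wild-type replicate 2 libraries. The causes were not tested. About 30 to 43 implied fragments for the median member limit what 2 libraries a group can show.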
